A study of Homo sapiens with 12 samples.

Results

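The 7 genes described here encode enzymes and receptors of prostaglandin E2 and bradykinin signalling: PTGS1, PTGS2, PTGES, PTGER2, PTGER4, BDKRB1 and BDKRB2. They were picked by name out of 58735 annotated genes, with earlier results of these data known, because PTGS2 and BDKRB2 had already stood out as higher in sgUFM1 cells than in the other sets. Values and test calls of sgUFM1 against the other sets are therefore given for the 7 genes as descriptions only. Tests are read for comparisons that leave the sgUFM1 libraries out and, with the limit of that choice, for the difference between the guides. The RNA came from MDA-MB-231, a human triple-negative, basal-like breast cancer line, carrying guide RNAs against UFM1 (sgUFM1), guide RNAs against UFL1 (sgUFL1), or the control guides kept for each (sgCtrl_to_sgUFM1 and sgCtrl_to_sgUFL1, called here the controls for sgUFM1 and the controls for sgUFL1). UFM1 is a small ubiquitin-like modifier, and UFL1 its E3 ligase. Each of the 4 groups had 3 libraries, with no further treatment or time given, and the labels speak of both knockdown and knockout and do not say whether a line was 1 clone or a pool. They do not state separate cultures for the 3 libraries, and the p-values here therefore measure a spread between libraries that may be technical.

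The deposited count and FPKM tables give 6 of the 12 libraries different names. Libraries were matched between the tables by their values, gene by gene over 11031 genes. Set 1, as used here, is named sgUFL1 in the table of counts and controls for sgUFM1 in the table of FPKM. Set 2 is named controls for sgUFM1 in the counts and sgUFL1 in the FPKM. Each set has 3 libraries. The sgUFM1 libraries and the controls for sgUFL1 have the same names in both tables. The sources used here do not settle which table is right, so which of set 1 and set 2 carried guides against UFL1 cannot be told apart, and no comparison of either is given the name of a guide. UFM1 itself had 38.7 ± 1.39 CPM (counts scaled by library size) in sgUFM1, 53.6 ± 4.11 in set 1, 53.7 ± 2.14 in set 2 and 65.4 ± 5.84 in the controls for sgUFL1 (SD, n = 3 each), the CPM being TMM-scaled throughout. UFL1 had 18.0 ± 1.37 CPM in set 1 and 12.4 ± 0.87 CPM in set 2 (SD, n = 3 each), with 23.1 ± 2.34 CPM in sgUFM1 and 24.8 ± 5.26 CPM in the controls for sgUFL1.

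The libraries held 15342793 to 18033331 counts. Replicate 1 stood apart from the other 2 libraries in set 1, with a chi-square per gene of 21.19 and 20.66 against 2.43 between those 2, and less so in set 2, with 9.74 and 7.66 against 2.58. The controls for sgUFL1 differed among themselves by 17.37 to 36.04 between their pairs. The mean GC content of the genes, weighted by their counts, was 49.81 to 50.94% in the 9 other libraries and 48.33 to 49.38% in the controls for sgUFL1, and mitochondrial counts were 3.12 to 4.0% in those 9 and 4.51 to 4.76% in these controls. The part of these differences in the results was not tested beyond the fits with GC and length offsets given beside them. All 8 markers of basal-like breast lines were at a mean of 1 CPM or more. So were 7 of the 9 luminal markers, and the other luminal markers, ESR1 and PGR, were below 1 CPM. CD3E and MS4A1, markers of lymphocytes, had no counts.

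Prostaglandin E2 is made from arachidonic acid, which cytosolic phospholipase A2 releases from membranes. PTGS1 (cyclooxygenase-1, made at steady levels in many cells) or PTGS2 (cyclooxygenase-2, induced by growth factors and inflammation) turns it into prostaglandin H2, and PTGES, the inducible microsomal prostaglandin E synthase, turns that into prostaglandin E2. PTGER2 and PTGER4 encode its receptors EP2 and EP4, which couple to Gs and raise cyclic AMP. BDKRB2 encodes the receptor for bradykinin, and BDKRB1 the inducible receptor for kinins that have lost their C-terminal arginine. Both kinin receptors couple to Gq and calcium release, which feeds phospholipase A2, and in many cells bradykinin leads to prostaglandin production. PTGS2 and prostaglandin E2 are well known in breast cancer for their link to invasion and metastasis.

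BDKRB2 and BDKRB1 are neighbours on chromosome 14, on the same strand (GRCh38, chr14:96204679-96244166 and chr14:96255824-96268967, plus strand), 11657 bases apart. PTGS2 lies on chromosome 1 (chr1:186671791-186680427, minus strand). PTGS1 (chr9:122370530-122395703, plus strand) and PTGES (chr9:129738331-129753047, minus strand) lie on chromosome 9, PTGER2 on chromosome 14 (chr14:52314305-52328606, plus strand) and PTGER4 on chromosome 5 (chr5:40679498-40693735, plus strand). The 300-base promoters of these 3 genes, 250 bases before to 50 after the start that the RefSeq table gives, are shown because the 3 genes were the ones with the largest differences in sgUFM1. The spans above are those of the deposited tables, and the RefSeq start lies inside them, 4 bases from the first base of PTGS2, 160 bases from that of BDKRB2 and 386 bases from that of BDKRB1. The sequences are of build GRCh38.p14, and the capitals mark matches on either strand to TGACATCA, to CGTCA, to the C/EBP-type motif TTNNGNAA and to the TATA box TATAAA.
PTGS2 promoter (chr1:186680374-186680673, minus strand): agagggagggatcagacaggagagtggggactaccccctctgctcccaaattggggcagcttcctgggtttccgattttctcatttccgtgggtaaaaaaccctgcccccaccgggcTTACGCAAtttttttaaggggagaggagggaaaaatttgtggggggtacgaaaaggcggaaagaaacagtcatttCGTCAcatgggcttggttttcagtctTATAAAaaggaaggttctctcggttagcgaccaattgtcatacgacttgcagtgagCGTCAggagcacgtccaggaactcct
BDKRB2 promoter (chr14:96204589-96204888, plus strand): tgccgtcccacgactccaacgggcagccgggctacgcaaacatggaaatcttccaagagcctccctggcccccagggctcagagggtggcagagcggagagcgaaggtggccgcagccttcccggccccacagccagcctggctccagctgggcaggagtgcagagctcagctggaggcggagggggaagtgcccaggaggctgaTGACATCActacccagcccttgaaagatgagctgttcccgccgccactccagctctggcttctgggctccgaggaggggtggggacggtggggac
BDKRB1 promoter (chr14:96255960-96256259, plus strand): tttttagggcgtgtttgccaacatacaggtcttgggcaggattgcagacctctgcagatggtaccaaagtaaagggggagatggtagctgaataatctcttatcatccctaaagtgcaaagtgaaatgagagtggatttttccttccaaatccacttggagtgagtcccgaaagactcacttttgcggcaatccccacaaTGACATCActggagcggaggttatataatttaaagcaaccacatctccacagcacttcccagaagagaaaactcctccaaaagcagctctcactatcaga
The PTGS2 window holds TATAAA at -32 to -27, TTACGCAA, which fits TTNNGNAA, at -133 to -126, and CGTCA, the core of the cyclic AMP response element, at -58 to -54 and at 25 to 29, counted from the RefSeq start as 1. Among 35116 promoters of the same length, TATAAA is in 11.5%, TTNNGNAA in 36.8% and CGTCA in 24.6%. Both kinin receptor windows hold TGACATCA, counted from their RefSeq starts at -45 to -38 in BDKRB2 and at -50 to -43 in BDKRB1. This word was noticed after the sequences had been read, and it is in 2.61% of the promoters. It differs from the full cyclic AMP response element TGACGTCA, which is in 1.85% and in none of the 7 genes' windows, as is the AP-1 motif TGANTCA, in 7.71%. A match is a description of these letters and not a measured binding site.

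Per length, the 7 genes spanned a wide range of levels. PTGES was the highest at a median of 160.3 FPKM over the 12 libraries (110.1 to 219.2), and PTGS2 followed at 45.15 FPKM (21.25 to 115.7). The ranges of these neighbours overlapped, but PTGES was above PTGS2 in each set's mean FPKM. PTGER4 had a median of 4.418 FPKM, BDKRB2 of 1.747 FPKM, PTGER2 of 0.329 FPKM, BDKRB1 of 0.230 FPKM and PTGS1 of 0.179 FPKM. The ranges of the last 3 overlapped, and they rest on only 162 to 259 counts over the 12 libraries, so their order is within the spread. The order of the receptors was not the same in every set: in sgUFM1, BDKRB2 averaged 6.35 ± 0.0636 FPKM and PTGER4 3.89 ± 0.195 FPKM (SD, n = 3), whereas in each of the other 3 sets PTGER4 was the higher of the pair. The cells thus held far more RNA for the inducible enzymes than for PTGS1 or for any of the receptors.

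PTGS2, the inducible cyclooxygenase, had 557, 615 and 602 CPM in the sgUFM1 libraries. It had 112, 317 and 309 CPM in set 1, 169, 162 and 172 CPM in set 2, and 143, 377 and 159 CPM in the controls for sgUFL1, replicates 1 to 3 in each case. The sgUFM1 libraries all lay above the 9 others and close together, while replicate 1 of set 1 was well below its mates and replicate 2 of the controls for sgUFL1 well above its own. The log2 difference of sgUFM1 was 1.27 (SE 0.28) from set 1, 1.83 (SE 0.06) from set 2 and 1.38 (SE 0.28) from the controls for sgUFL1. With offsets for each gene's GC content and length these were 1.16, 1.57 and 1.58. In bulk RNA, more RNA in each cell and more cells that carry it cannot be told apart, for this gene and the others.

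PTGES, the terminal synthase, had 416, 414 and 419 CPM in sgUFM1, against 260, 321 and 325 CPM in set 1, 260, 313 and 295 CPM in set 2 and 252, 301 and 210 CPM in the controls for sgUFL1. The sgUFM1 libraries were again above all 9 others, and nearly equal to each other. Its differences were smaller than those of PTGS2: 0.46 (SE 0.09) from set 1, 0.53 (SE 0.07) from set 2 and 0.71 (SE 0.13) from the controls for sgUFL1, on the log2 scale. PTGS1, the steady cyclooxygenase, was scarce everywhere, with 0.579 to 0.826 CPM in sgUFM1, 0.853 to 1.35 CPM in set 1, 1.07 to 3.23 CPM in set 2 and 0.366 to 1.73 CPM in the controls for sgUFL1. Its sgUFM1 libraries were all below those of set 1 and set 2, but lay inside the range of the controls for sgUFL1. The cyclooxygenase RNA that was high in sgUFM1 was thus that of PTGS2.

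**Figure D1:**
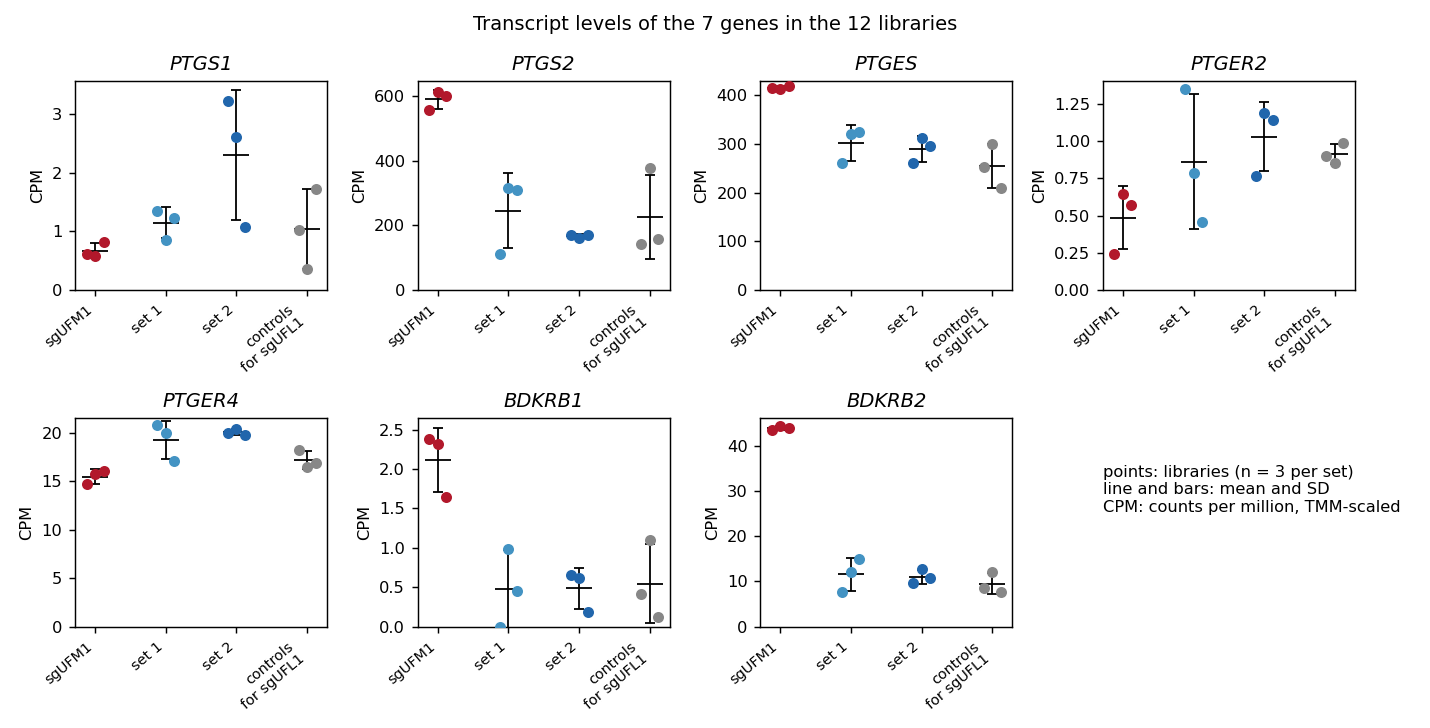
Level of each of the 7 genes in every library, as TMM-scaled CPM on axes that start at 0, with 3 points per set and lines at each set's mean and SD. The sgUFM1 points of PTGS2, PTGES, BDKRB1 and BDKRB2 sit above the 9 other libraries, and those of PTGER4 sit below them.

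The prostaglandin E2 receptors did not share the enzymes' pattern. PTGER4 (EP4) had 14.7, 15.8 and 16.1 CPM in sgUFM1, against 20.8, 20.0 and 17.1 CPM in set 1, 20.0, 20.4 and 19.8 CPM in set 2 and 18.3, 16.5 and 16.9 CPM in the controls for sgUFL1. The sgUFM1 libraries lay just below all 9 others, with log2 differences of -0.31 (SE 0.12) from set 1, -0.36 (SE 0.10) from set 2 and -0.16 (SE 0.14) from the controls for sgUFL1. With GC and length offsets the difference from set 2 was -0.24. The whole span of PTGER4 lies inside TTC33 on the other strand, and without a stated strand their reads cannot be told apart: PTGER4 was assigned 3534 counts and TTC33 3914 over the 12 libraries, so the PTGER4 values are uncertain. PTGER2 (EP2) had 0.245 to 0.644 CPM in sgUFM1, 0.455 to 1.35 CPM in set 1, 0.765 to 1.19 CPM in set 2 and 0.854 to 0.99 CPM in the controls for sgUFL1, which leaves its order between sgUFM1 and set 1 within their spread.

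BDKRB2, the bradykinin receptor, showed the clearest step of the 7 genes between sgUFM1 and the rest. It had 43.4, 44.3 and 43.8 CPM in sgUFM1, against 7.74, 12.1 and 15.0 CPM in set 1, 9.73, 12.7 and 10.7 CPM in set 2 and 8.55, 12.1 and 7.73 CPM in the controls for sgUFL1. The lowest sgUFM1 library was far above the highest of the 9 others, and the sgUFM1 libraries were within 1.02-fold of each other, while the others ranged over 1.94-fold. The log2 differences were 1.92 (SE 0.18) from set 1, 2.00 (SE 0.10) from set 2 and 2.21 (SE 0.16) from the controls for sgUFL1. They were 1.95, 2.04 and 2.13 with GC and length offsets. The pseudogene CKS1BP1, which overlaps BDKRB2, was assigned 81 counts over the 12 libraries, against 3665 for BDKRB2.

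BDKRB1, the inducible kinin receptor beside it, differed in the same direction at a far lower level. Its raw counts were 39, 36 and 26 in sgUFM1, against 0, 15 and 7 in set 1, 12, 11 and 3 in set 2 and 7, 18 and 2 in the controls for sgUFL1. In each of these comparisons it passed the filter on low counts only with the help of the sgUFM1 libraries. All 3 sgUFM1 libraries were above the 9 others, and the log2 differences were 2.15 (SE 0.64) from set 1, 2.08 (SE 0.41) from set 2 and 1.93 (SE 0.53) from the controls for sgUFL1. At these counts the size is loosely fixed: without replicate 2 of set 1, for example, the difference from set 1 was 3.21.

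**Figure D2:**
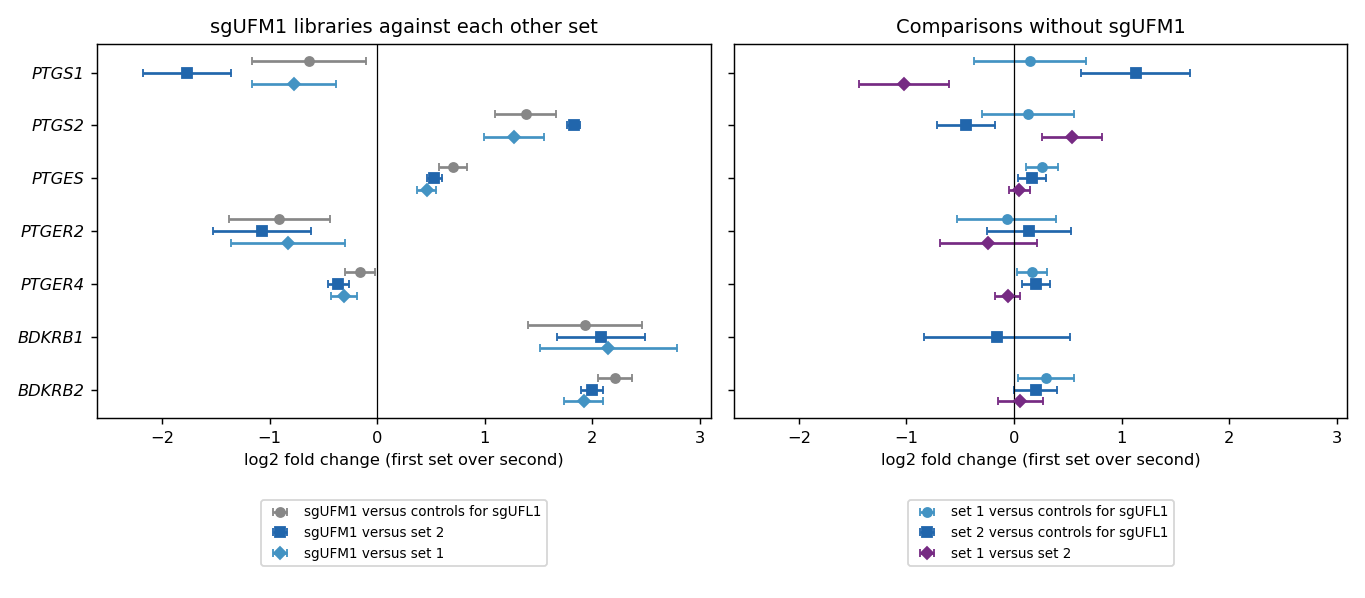
Log2 difference of each of the 7 genes between sgUFM1 and each other set, and between the other sets, as points with bars of 1 standard error from edgeR, with BDKRB1 shown only where it could be tested. BDKRB2 lies between 1.92 and 2.21 in the 3 comparisons with sgUFM1 and between 0.06 and 0.30 in the 3 without it.

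By edgeR's quasi-likelihood test at an adjusted p of 0.05, PTGS2, PTGES, BDKRB1 and BDKRB2 were called higher and none of the 7 lower in sgUFM1 against the controls for sgUFL1, where 10.0% of 15035 genes tested were called (5.57% higher and 4.43% lower). Against set 2, the same 4 were called higher and PTGS1 and PTGER4 lower, with 37.8% of 15083 genes called (19.3% higher and 18.5% lower). Against set 1, PTGS2, PTGES and BDKRB2 were called higher and none lower, with 9.72% of 14977 genes called (4.57% higher and 5.15% lower). These calls share the contrasts by which the genes were chosen, the 3 comparisons share the sgUFM1 libraries, and nothing is read from the counts. The same holds for the 4 genes with all sgUFM1 libraries above the 9 others, which 3.87% of 15821 genes did, and for PTGER4 below them, which 2.97% did. The median log2 difference of the 7 genes was 0.71 from the controls for sgUFL1, 0.53 from set 2 and 0.46 from set 1, while that of all genes tested was 0.00, 0.01 and -0.01. Without replicate 1 of the controls for sgUFL1 the PTGS2 call against them was lost (log2 1.14), and without any 1 sgUFM1 library that against set 1 was lost too. By limma, with or without a filter, the PTGS2 calls against the controls and against set 1 were both lost. The BDKRB1 call against the controls was lost without any 1 sgUFM1 library (log2 1.84 to 2.08), without replicate 1 (1.78) or replicate 3 (1.47) of the controls, in 1 model of 12 libraries and by limma. The PTGES call against set 1 was lost without replicate 2 or replicate 3 of sgUFM1, and that of PTGER4 against set 2 with the offsets. By limma without a filter, the PTGES calls against set 1 and the controls and the PTGS1 call against set 2 were lost.

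The comparisons without sgUFM1 played no part in choosing the genes, and here none of the 7 was called. Between set 1 and the controls for sgUFL1, 6 of the 7 could be tested, and none passed at an adjusted p of 0.05 or at an unadjusted p of 0.05, with 1.10% of 14996 genes called (1.08% higher and 0.0200% lower); DESeq2 and limma called none either. PTGS2 differed by 0.13 (SE 0.43, adjusted p = 0.86 by edgeR) and BDKRB2 by 0.30 (SE 0.26, adjusted p = 0.47 by edgeR). Between set 2 and the controls for sgUFL1, 35.8% of 15175 genes were called (17.4% higher and 18.4% lower) but none of the 7, and PTGS1 alone was under an unadjusted p of 0.05 (log2 1.13, SE 0.51, adjusted p = 0.097 by edgeR). DESeq2 and limma called none of them. There PTGS2 differed by -0.45 (SE 0.27, adjusted p = 0.20 by edgeR), PTGES by 0.17 (SE 0.13, adjusted p = 0.34 by edgeR) and BDKRB2 by 0.20 (SE 0.20, adjusted p = 0.44 by edgeR). With the offsets 7.05% of the genes were called there, and again none of the 7. Without a filter on low counts PTGS1 (1.15) and PTGS2 (-0.44) were called. Without replicate 3 of the same controls, PTGS1 was called at 1.71 (adjusted p = 0.041 by edgeR), and without their replicate 2, PTGES at 0.30 (adjusted p = 0.04 by edgeR).

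Between set 1 and set 2, 2.20% of 15033 genes were called (0.705% higher and 1.49% lower) and none of the 6 that could be tested, by edgeR with the filter on low counts, DESeq2 or limma, with PTGS1 again under an unadjusted p of 0.05 (log2 -1.02, SE 0.42, adjusted p = 0.21 by edgeR). PTGS2 differed by 0.54 (SE 0.28, adjusted p = 0.32 by edgeR), and was called without replicate 1 of set 1 (0.88, adjusted p = 5.4e-07 by edgeR) and in the fit without a filter on low counts (0.54, adjusted p = 3.2e-06 by edgeR). BDKRB2 differed by 0.06 (SE 0.21, adjusted p = 0.92 by edgeR). These 3 comparisons share libraries, and with standard errors of this size they do not show that PTGS2 was equal in the sets. PTGS2 varied 3.36-fold over the 9 libraries outside sgUFM1 and 1.1-fold within sgUFM1.

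Over those 9 libraries the other genes were set against PTGS2, a relation looked for after the values had been seen. BDKRB2 had a Pearson r of 0.76 (exact permutation p = 0.022) and a Spearman rho of 0.70 (exact permutation p = 0.043), and BDKRB1 an r of 0.76 (exact permutation p = 0.020) and a rho of 0.78 (exact permutation p = 0.017). PTGES had an r of 0.62 (exact permutation p = 0.072) and a rho of 0.73 (exact permutation p = 0.031), and PTGER2 went the other way with an r of -0.68 (exact permutation p = 0.039) and a rho of -0.62 (exact permutation p = 0.086). PTGS1 had an r of -0.57 (exact permutation p = 0.11) and a rho of -0.52 (exact permutation p = 0.16). For PTGER4 they were -0.51 (exact permutation p = 0.16) and -0.4 (exact permutation p = 0.29). The permutations took no account of the sets, so these p-values treat the 9 libraries as independent. Adjusted over the 6 relations none passed: the two-sided adjusted p-values of r were 0.066 for BDKRB2 and BDKRB1, 0.078 for PTGER2 and 0.11 for PTGES, and those of rho, in the same order, 0.087, 0.087, 0.13 and 0.087. Without the 2 libraries farthest from the median of PTGS2, r was 0.82 for BDKRB2, 0.47 for BDKRB1, 0.54 for PTGES and -0.87 for PTGER2. Taken as deviations from each set's own mean, r was 0.88 for BDKRB2, 0.82 for BDKRB1, 0.79 for PTGES and -0.65 for PTGER2. For PTGS1, r was -0.06 without the 2 farthest libraries and -0.55 as deviations, and for PTGER4 -0.57 and -0.64. Replicate 1 of set 1, the lowest of the 9 in PTGS2, is also the library that stood apart from its set.

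**Figure D3:**
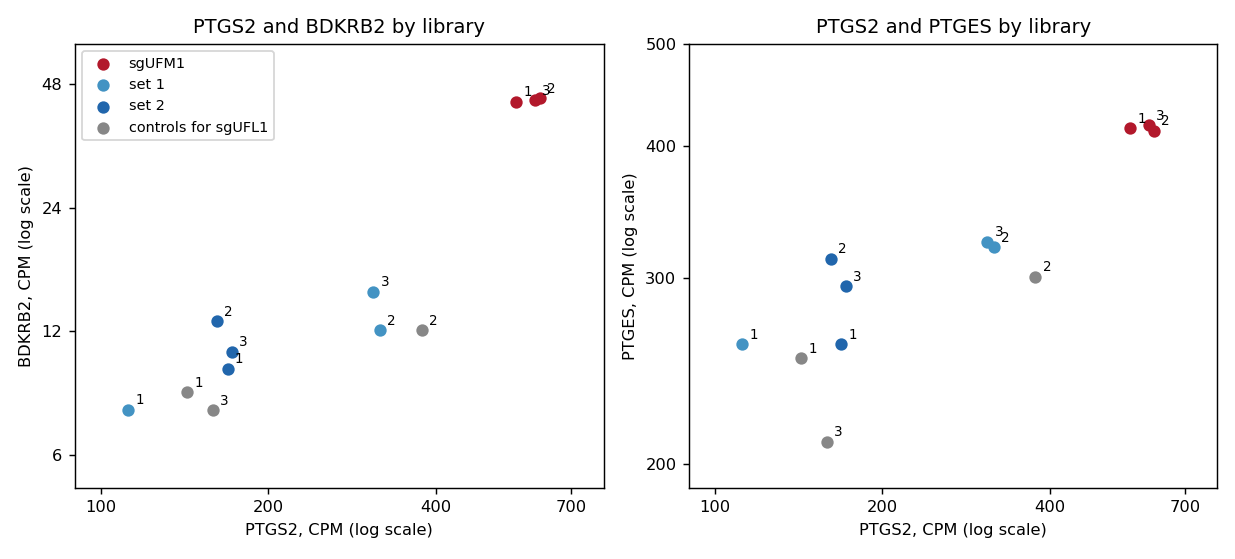
CPM of BDKRB2 and of PTGES against CPM of PTGS2 in the 12 libraries on log axes, each point labelled with its replicate number and coloured by set. The sgUFM1 libraries form a group of their own at 557 to 615 CPM of PTGS2, and the 9 others spread between 112 and 377 CPM.

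The effect of the 2 guides was compared by the difference of their differences: sgUFM1 less set 1, less set 2, plus the controls for sgUFL1. This sum is the same whichever table's names are right. BDKRB2 gave 1.70 (SE 0.28) and PTGS2 1.70 (SE 0.48), while PTGES gave 0.28 (SE 0.17) and BDKRB1 2.29 (SE 1.08), on the log2 scale. PTGER4 gave -0.53 (SE 0.16) and PTGS1 -1.91 (SE 0.71), and PTGER2 -1.0 (SE 0.65). PTGS2 and BDKRB2 were called higher and PTGS1 and PTGER4 lower, where 34.8% of 15821 genes were called (17.0% higher and 17.9% lower). With GC and length offsets, where 7.91% of the same genes were called, BDKRB2 and PTGES were the 2 of the 7 called, PTGES at 0.81, and PTGS2 was at 1.15 and not called. The sum contains the sgUFM1 libraries by which PTGS2 and BDKRB2 were picked.

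The neighbours of these genes on the chromosome were looked at after their values had been seen. For BDKRB2, PTGS2 and PTGES they were the 3 nearest tested protein-coding genes on each side, 18 in all. Of these, 1 was called higher and 1 lower in sgUFM1 against the controls for sgUFL1, 4 and 4 against set 2, and 1 and 2 against set 1. Over all genes tested, 10.0%, 37.8% and 9.72% were called in the same order, and nothing is read from the counts. Some of the nearest tested genes were far away: UCHL5, the gene called lower against the controls, lies 6330 kb from PTGS2. ATG2B, 10234 bases past BDKRB1, differed in sgUFM1 by 0.17 from set 1, 0.28 from set 2 and -0.16 from the controls for sgUFL1, and GSKIP beside it by 0.12, 0.27 and -0.16, with no call for either, while PAPOLA, the next, was called against set 2 (0.31). TOR1B, 50.1 kb from PTGES, differed by 0.07, 0.10 and 0.00 without a call, and ASB6 on the other side was called lower than in set 1 (-0.33) and set 2 (-0.40). PLA2G4A, the cytosolic phospholipase A2 that lies 149 kb from PTGS2, was called higher in sgUFM1 than in set 1 (0.48, adjusted p = 0.017 by edgeR) and than in set 2 (0.67, adjusted p = 1.6e-05 by edgeR), but differed by -0.12 from the controls for sgUFL1 (adjusted p = 0.66 by edgeR). On the other side of the kinin receptors the nearest tested protein-coding gene was GLRX5, 660 kb from BDKRB2. It was lower in sgUFM1 than in set 1 (-0.35, adjusted p = 0.038 by edgeR) and than in set 2 (-0.53, adjusted p = 4.4e-05 by edgeR). From the controls for sgUFL1 it differed by -0.0, without a call.

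Genes with the most similar profile over the 12 libraries, by Pearson r of log2 CPM among 12936 protein-coding genes, were SLC20A1 (0.984), EHF (0.982), GBP4 (0.981), SRPRA (0.979) and KCNN3 (0.979) for PTGS2. For BDKRB2 they were TRIB2 (0.989), BHLHE40 (0.985), CDCP1 (0.970), PECAM1 (0.969) and ASB2 (0.961). The 12 points share 4 sets, and each of these 10 genes had its highest mean in sgUFM1. PECAM1 also belongs to the endothelial marker list, whose summed level was 28.8 to 32.5 CPM in sgUFM1, 12.8 to 14.8 CPM in set 1, 15.3 to 17.4 CPM in set 2 and 13.0 to 16.0 CPM in the controls for sgUFL1. Of that list 2 of 7 genes, PECAM1 and KDR, reached 1 CPM, and CDH5, VWF, TEK, CLDN5 and ERG were below 1 CPM. The leukocyte list, with 2 of 10 genes at 1 CPM, summed to 6.3 to 6.82 CPM in sgUFM1, 4.09 to 5.38 CPM in set 1, 5.47 to 6.24 CPM in set 2 and 4.08 to 4.88 CPM in the controls for sgUFL1, and the fibroblast list, with 2 of 7, to 18.7 to 21.8, 13.3 to 23.0, 18.0 to 20.6 and 10.7 to 15.5 CPM in the same order. Their part in the results was not tested.

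Around the 7 genes, 102 further genes of the pathway were taken in 10 lists, of which 30 were below 1 CPM in every library. Among these were KNG1, the kininogen from which bradykinin is cut, with no counts, and KLKB1 and KLK1, kallikreins that release it. ACE, the angiotensin-converting enzyme that also degrades bradykinin, averaged at most 0.0729 CPM in any set. In sgUFM1 against the controls for sgUFL1, 8 of the 70 tested were called higher and 7 lower, 21.4% beside 10.0% of all genes. Against set 2 it was 14 higher and 19 lower, 47.1% beside 37.8%, and against set 1, 7 higher and 7 lower, 20.0% beside 9.72%. The median log2 difference over the lists was 0.06 from the controls for sgUFL1, -0.08 from set 2 and -0.03 from set 1, and that of all genes lay within 0.01 of 0.

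In sgUFM1, 4 of the 70 genes were called higher in each of the 3 comparisons, and 2 lower, beside 1.25% and 0.811% of 14669 genes; the 3 comparisons share the sgUFM1 libraries. EGR1, an immediate early transcription factor that binds the PTGS2 promoter, was at 77.4 ± 2.22 CPM in sgUFM1, against 42.3 ± 6.1 CPM in set 1, 61.5 ± 1.35 CPM in set 2 and 33.3 ± 10.1 CPM in the controls for sgUFL1 (SD, n = 3 each). Its log2 differences were 0.87, 0.34 and 1.21 (adjusted p = 0.0013, 0.0011 and 0.0024 by edgeR). EGR1 was also higher in set 2 than in the controls for sgUFL1 (0.87, adjusted p = 0.0032 by edgeR). PDE4D, a phosphodiesterase that breaks down cyclic AMP, was at 136 ± 8.15 CPM in sgUFM1, against 82.2 ± 7.79, 73.0 ± 1.01 and 97.9 ± 8.6 CPM in set 1, set 2 and the controls for sgUFL1 (log2 0.73, 0.90 and 0.47, adjusted p = 0.0013, 9.2e-09 and 0.018 by edgeR). The call against the controls was lost without any 1 sgUFM1 library.

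DUSP1, a phosphatase that switches off MAP kinases, ran the other way, at 63.5 ± 1.3 CPM in sgUFM1, against 141 ± 24.1, 177 ± 16.9 and 131 ± 27.3 CPM in set 1, set 2 and the controls for sgUFL1. Its log2 differences were -1.15, -1.47 and -1.05 (adjusted p = 4.9e-04, 1.1e-11 and 0.0016 by edgeR). PDE4D, DUSP1 and NR4A2, an orphan nuclear receptor, all stand on the list of cyclic AMP target genes, and NR4A2 was called higher, in the same order of sets, by 0.72, 0.50 and 0.77 (adjusted p = 0.046, 0.03 and 0.046 by edgeR). Their list had 2 of 11 genes higher and 1 lower against the controls for sgUFL1, 3 and 2 against set 2, and 2 and 1 against set 1. In that order this was 27.3%, 45.5% and 27.3% of the list, beside 10.0%, 37.8% and 9.72% of all genes tested. The remaining 2 genes were AKR1C3, a prostaglandin F synthase (0.62, 0.54 and 0.72), whose reads may be split with near-identical AKR1C genes, and PRCP, a carboxypeptidase that activates the kallikrein system (-0.29, -0.20 and -0.59), both in that order too. Against the controls, the AKR1C3 call was lost without any 1 sgUFM1 library, and the PRCP call without replicate 1 or without replicate 2 of sgUFM1. PRCP was also lower in set 2 than in the controls for sgUFL1 (-0.39, adjusted p = 0.019 by edgeR), a difference that reversed with the offsets.

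**Figure D4:**
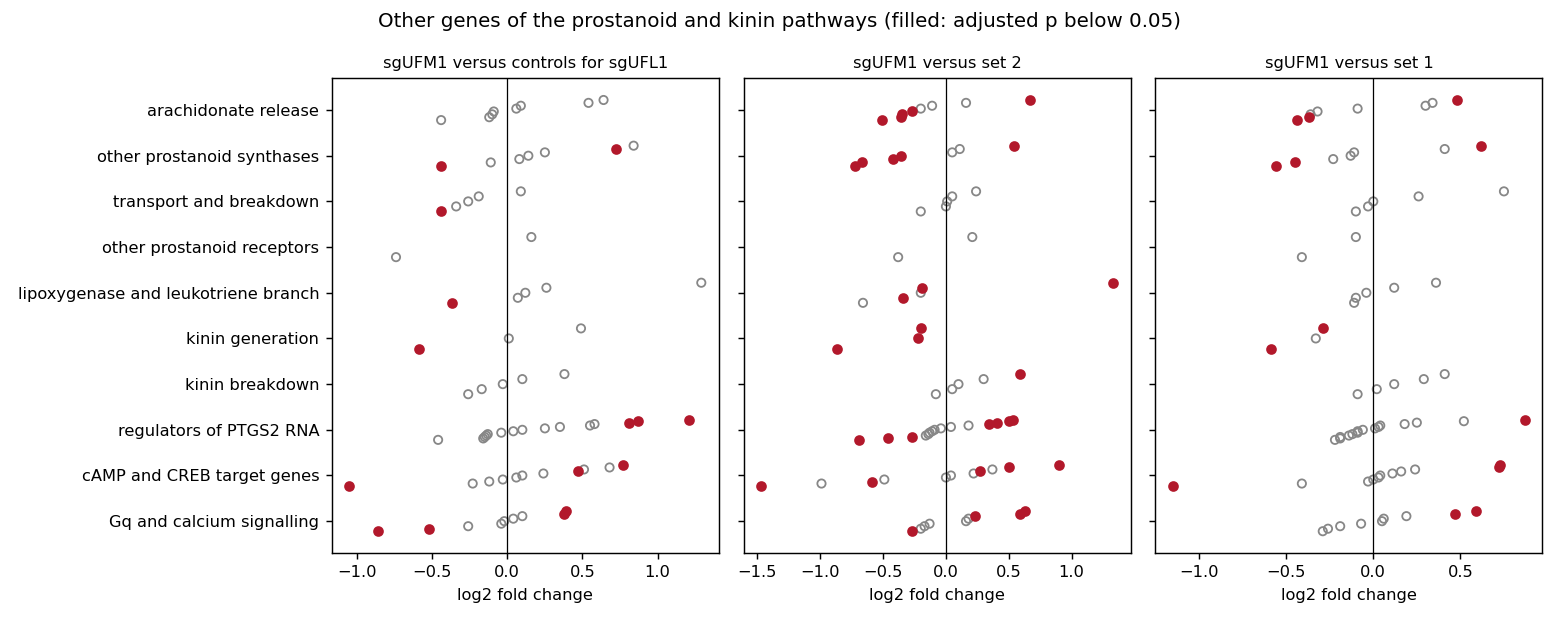
Log2 difference between sgUFM1 and each other set for every tested pathway gene, with 1 row per list, filled points for genes past an adjusted p of 0.05, and horizontal axes that differ between panels. The leftmost point on the row of cyclic AMP target genes is DUSP1, at -1.05, -1.47 and -1.15 from left to right, and against set 2 all 3 kinin generation genes are filled and below 0.

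Of the other prostaglandin E synthases, PTGES2 was lower in sgUFM1 than in set 1 (-0.56, adjusted p = 0.0068 by edgeR) and than in set 2 (-0.72, adjusted p = 1.5e-06 by edgeR), and differed by 0.08 from the controls for sgUFL1. PTGES3, the cytosolic synthase and HSP90 co-chaperone p23, was lower than in the controls for sgUFL1 (-0.44, adjusted p = 0.026 by edgeR). PTGES3 was also lower in set 2 than in these controls (-0.56, adjusted p = 0.0023 by edgeR). Between sgUFM1 and set 1 it differed by -0.13, and between sgUFM1 and set 2 by 0.11, without a call. F12, the plasma protease factor XII that starts the kinin cascade, was lower in sgUFM1 than in set 1 (-0.59, adjusted p = 0.028 by edgeR) and than in set 2 (-0.87, adjusted p = 7.6e-05 by edgeR). F12 was also higher in set 1 (1.09, adjusted p = 0.049 by edgeR) and in set 2 (1.35, adjusted p = 5.6e-04 by edgeR) than in the controls for sgUFL1, and both calls were lost with the offsets (0.34 and 0.47). GNAQ, the Gq subunit of the kinin receptors, was higher in sgUFM1 than in set 1 (0.47, adjusted p = 0.012 by edgeR) and than in set 2 (0.59, adjusted p = 1.5e-05 by edgeR), but differed by -0.04 from the controls. Without replicate 2 or without replicate 3 of sgUFM1, the calls of PTGES2, PLA2G4A, GNAQ and F12 against set 1 were lost, and that of F12 also with the offsets (-0.28). The mean CPM of these 4 genes in sgUFM1 lay nearer to those of the controls for sgUFL1 than to those of set 1 and set 2. In set 2 against the same controls, 18 of 72 list genes were called higher and 14 lower, 44.4% beside 35.8% of all genes. In set 1 against them, F12 and GNA11 alone were called, 2.82% of 71 beside 1.10%, and with the offsets neither was.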

How the data were processed

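Total RNA libraries were made from TRIzol extracts by Illumina protocols, per the labels, with strand not stated. The authors deposited read counts per gene as whole numbers, and FPKM for the same 12 libraries in a second table. The submitters' processing notes name featureCounts 2.0.0, STAR 2.7.7a and fastp 0.20.1, and the build GRCh38. FPKM and count columns were matched over genes with at least 50 counts in each of the 12 libraries. The SD of the log2 ratio was at most 2.6e-10 for the match and at least 0.151 for the next column.

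Counts went through filterByExpr (minimum count 10), TMM scaling and the quasi-likelihood test of edgeR 4.0.16 in R 4.3.3, with Benjamini-Hochberg adjustment over all genes tested and a threshold of 0.05. Each model held the 2 sets compared, or all 12 libraries for the difference between guides. Standard errors come from the same models. The members, the pathway lists and the marker lists were chosen with earlier results of these data known. All symbols of the lists were found, 1 under a newer name. Named pathway genes are up to 2 per list and comparison, taken by smallest p among those called. Genes that averaged below 1 CPM in both groups compared were not eligible. NR4A2, called in all 3 comparisons with sgUFM1, was named beyond that rule after its values were seen, and for a gene named in 1 comparison the values of the others (AKR1C3, PRCP and EGR1 among them) are given beside it. Neighbours, the relations to PTGS2 and the TGACATCA motif were also chosen after values or sequences were seen.

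Alternatives were RLE scaling, no filter, a replicate block, offsets for GC content and length (lowess, span 0.3), 1 model of 12 libraries, DESeq2 1.42.0, limma 3.58.1 on log2(FPKM + 0.5) and log2(FPKM + 0.1), and leaving out each library. The fitting code was tested on simulated data. Likeness used log2 CPM with a prior count of 2. Promoters came from a RefSeq table, GRCh38.p14, which held all 7 genes.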

Additional observations from a re-analysis of the deposited data

Results flagged for a closer look

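The difference between the guides, which is the effect of sgUFM1 over its controls less that of sgUFL1 over its controls and does not depend on which table's names are used, passed the edgeR test of the difference itself for 4 of the 7 genes. For BDKRB2 it was 1.70 on the log2 scale (SE 0.28, adjusted p = 6.4e-04 by edgeR). For PTGS2 it was 1.70 (SE 0.48, adjusted p = 0.012 by edgeR), for PTGER4 -0.53 (SE 0.16, adjusted p = 0.018 by edgeR) and for PTGS1 -1.91 (SE 0.71, adjusted p = 0.048 by edgeR). All 12 libraries enter it, so the genes' choice on the sgUFM1 libraries bears on these values too, and 34.8% of all genes tested passed. With GC and length offsets the value was 1.15 for PTGS2 (adjusted p = 0.19 by edgeR), -0.19 for PTGER4 (adjusted p = 0.52 by edgeR) and -1.68 for PTGS1 (adjusted p = 0.18 by edgeR), and BDKRB2 was called under each alternative run. With 1 library left out, the PTGS1 call was mostly lost. It held only without replicate 2 of set 1 and without replicate 3 of set 2 or of the controls for sgUFL1. The PTGER4 call was lost without replicate 1 of sgUFM1 or of set 1, and without a filter on low counts.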

How the results depend on the processing

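Over the 45 alternatives run for the 3 comparisons with sgUFM1, BDKRB2 was called in 45 (log2 1.68 to 2.42) and PTGS2 in 35 (0.92 to 1.96); PTGES lost its call in 4 (0.37 to 0.84). BDKRB1 lost its call in 9 and gained one in 4 (0.88 to 3.21). These refits share libraries and the contrasts by which PTGS2 and BDKRB2 were picked, so how often a gene was called is description only. The depth limits PTGS1, PTGER2 and BDKRB1, at 162 to 259 counts in all. Where a value changed, the cause was not tested.

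Genes called numbered 1503 in sgUFM1 against the controls for sgUFL1. They were 2315 without a filter, 2565 in 1 model of 12 libraries, 442, 400 and 13 by limma (pseudocounts of 0.5 and 0.1, and no filter), and 275 to 4196 with a library left out. Against set 2 they were 5697, with 3023 in 1 model, 2794 by limma without a filter and 4163 to 6525 with a library left out. Against set 1 they were 1456, with 901 in 1 model, 797, 768 and 193 by limma and 118 to 4080 with a library left out. For set 1 against the controls for sgUFL1 they were 165, with 0 under RLE scaling, the replicate block, the offsets and limma, 1921 without a filter, 3463 in 1 model, 1697 by DESeq2 and 0 to 2419 with a library left out. For set 2 against the same controls they were 5438, with 1070 under the offsets, 1787 by limma without a filter and 2486 to 6985 with a library left out. For set 1 against set 2 they were 330, with 1116 without a filter, 832 under the replicate block, 685 by DESeq2, 35, 28 and 0 by limma and 13 to 2564 with a library left out. The difference between guides had 5511, 1252 under the offsets and 4061 to 6321 with a library left out.

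Reversed values of set 1 against the controls for sgUFL1 under the offsets were -0.02 for PTGS1, -0.08 for PTGES and -0.05 for PTGER4. With 1 library left out, that comparison ranged over -0.25 to 0.73 for PTGS1, -0.11 to 0.72 for PTGS2 and -0.55 to 0.24 for PTGER2. In set 2 against those controls, the offsets gave 0.01 for PTGS2, -0.25 for PTGES, -0.06 for PTGER4, -0.18 for DAGLA and 0.06 for PRCP, and leaving out 1 library gave -0.68 to 0.13 for PTGS2 and -0.61 to 0.20 for BDKRB1. In set 1 against set 2, PTGER4 was 0.01 under the offsets, and leaving out 1 library gave -0.02 to 0.13 for PTGES, -0.74 to 0.06 for PTGER2, -0.14 to 0.02 for PTGER4 and -0.16 to 0.27 for BDKRB2. Without a filter, PTGS1 (1.15, adjusted p = 0.017 by edgeR) and PTGS2 (-0.44, adjusted p = 0.0052 by edgeR) were called in set 2 against those controls, and PTGS2 (0.54) in set 1 against set 2.

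Whether replicate numbers pair the libraries was not tested. Deviations of same-numbered libraries had correlations of -0.21 to 0.38, above 0.1 in 5 of 18 pairs. Between set 1 and the controls for sgUFL1 they were 0.38, 0.38 and -0.21 for replicates 1, 2 and 3. The replicate block gave 1868 calls for sgUFM1 against the controls for sgUFL1 and 4906 against set 2, and PTGS1 was called in set 2 against those controls (1.15, adjusted p = 0.035 by edgeR).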
